A study of Mus musculus with 10 samples.

Results

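The 38 genes described here encode lysosomal enzymes, their activators and membrane proteins of the lysosome, together with Psap and Pld4. They were given as a list and grouped by role, and all 38 were found among the 51717 genes to which the deposited transcripts could be assigned. All 38 also passed the filter on low counts, which left 12381 genes for testing. The question was whether the lysosomal genes moved as a whole in GMPs after loss of Mpc2, a subunit of the mitochondrial pyruvate carrier, or whether single genes did.

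The cells were CD45.2+ GMPs, granulocyte-macrophage progenitors of the bone marrow, sorted for RNA sequencing from irradiated CD45.1 recipients of mixed marrow. WT cells were ROSA26 CreER+/-, and recent KO cells were Mpc2fl/fl; ROSA26 CreER+/-, in both cases C57Bl6/N and male per the labels, which give no age. Both groups carried the CreER transgene, which is expressed in all cell types, and both received tamoxifen chow for 2 wk, at the end of which the cells were taken. Each group had 5 samples. WT samples were of 1 mouse each, whereas those of the recent KO pooled 2 mice each, and in this design genotype and pooling cannot be told apart. Levels are given as CPM, the estimated reads of a gene divided by the effective library size, or as TPM, which is also scaled to transcript length. Fold changes are on the log2 scale and are negative where the recent KO is lower. Adjusted p-values come from the quasi-likelihood test of edgeR, adjusted by Benjamini-Hochberg over all 12381 genes, and a gene is called at an adjusted p below 0.05.

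Lysosomes digest proteins, sugar chains, lipids and nucleic acids in an acidic lumen that a proton pump maintains. Most of the enzymes are made as precursors in the endoplasmic reticulum and are carried to the lysosome by mannose 6-phosphate receptors, whereas heavily glycosylated proteins such as LAMP1 and LAMP2 line its membrane. In the granulocyte lineage the primary granules are related to lysosomes and hold some of the same enzymes beside myeloperoxidase and the serine proteases. Many lysosomal genes carry a CACGTG-containing element near the start of transcription, which is bound by TFEB and its relatives of the MiT/TFE family.

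That element was looked for in the 300 bases around each start, 250 before and 50 after, in the RefSeq promoter table of GRCm38.p6, which held 34 of the 38 members. Asah1, Ctsb, Ctsh and Npc1 were not in it. CACGTG, which reads the same on both strands, was found in 12 of the 34 members (35.3%), against 7.15% of the 32851 promoters in the table and 12.1% of the tested genes that have one. The longer TCACGTG, searched on both strands and contained within the matches to the first, was found in 11 of 34 (32.4%), against 3.77% of promoters and 7.25% of tested genes. The 90 bases before the start are printed 5′ to 3′ for 5 members whose levels are described below, with CACGTG in capitals. Lamp1 and Glb1 are shown for the motif, and Psap, Pld4 and Hexa because they were the 3 members whose groups did not overlap. All 5 lie on the plus strand, at chr8:13159071-13159160 (Lamp1), chr9:114400988-114401077 (Glb1), chr10:60277538-60277627 (Psap), chr12:112760565-112760654 (Pld4) and chr9:59539450-59539539 (Hexa).
Lamp1: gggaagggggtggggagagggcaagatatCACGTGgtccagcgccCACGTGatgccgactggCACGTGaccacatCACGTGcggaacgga
Glb1: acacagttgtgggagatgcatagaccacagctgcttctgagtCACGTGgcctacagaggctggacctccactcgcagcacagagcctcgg
Psap: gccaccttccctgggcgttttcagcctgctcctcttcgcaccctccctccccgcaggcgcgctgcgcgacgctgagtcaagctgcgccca
Pld4: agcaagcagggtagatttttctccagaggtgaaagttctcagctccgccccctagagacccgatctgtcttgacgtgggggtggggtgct
Hexa: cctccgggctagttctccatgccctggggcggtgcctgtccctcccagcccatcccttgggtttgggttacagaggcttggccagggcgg

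Lamp1 held 4 copies of the motif, beginning 61, 45, 28 and 15 bases before the start, and Glb1 held 1 copy. The windows of Psap, Pld4 and Hexa held none. Of the 12 members with CACGTG in the window, 8 had a log2 fold change below 0 and the median was -0.08. Of the 22 members without it, 19 were below 0 and the median was -0.12. Both called genes were among the 22, and 4 of the 12 and 5 of the 22 had an unadjusted p below 0.05. A match to these letters is a description of the sequence and says nothing about whether a factor binds there.

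In WT GMPs the 38 genes ranged from Lgmn at 0.315 TPM ± 0.172 (SD, n = 5) to Ctsz at 573 TPM ± 39.2. Ctsz encodes cathepsin Z, a carboxypeptidase, and stood apart from the rest. It was followed by the aspartic protease gene Ctsd at 139 TPM ± 11, Lamp1 at 126 TPM ± 8.01, Hexa at 120 TPM ± 8.14 and the cysteine protease gene Ctsb at 112 TPM ± 9.06. The sample ranges of these last 4 genes overlapped from each gene to the next. The 5 genes together held 62.1% of the summed TPM of the 38. In all, 17 members were at or above 20 TPM and 3 were below 1 TPM. Those 3 were Gla, encoding α-galactosidase, at 0.81 TPM, Ids, encoding iduronate-2-sulfatase, at 0.39 TPM, and Lgmn, encoding legumain, an asparagine-specific protease.

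**Figure D1:**
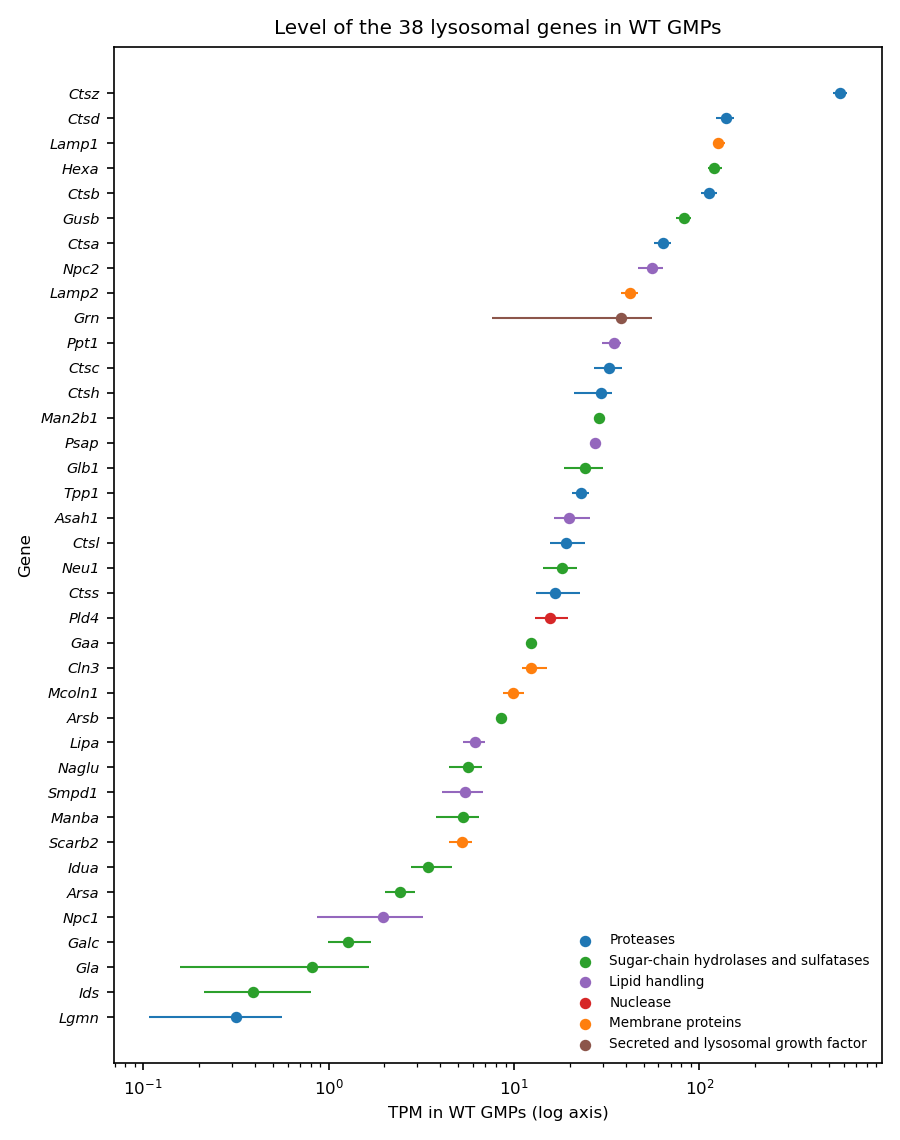
Level of each of the 38 genes in WT GMPs in TPM (log axis), with points for the mean of 5 samples, lines from the lowest to the highest sample and colors for the role. Ctsz at 573 TPM lies apart from the next gene, Ctsd at 139 TPM, and Gla, Ids and Lgmn lie below 1 TPM.

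Mpc2 itself ranged from 60.9 to 117 CPM in WT samples and from 17.1 to 43.9 CPM in recent KO samples, with no overlap and an adjusted p of 0.0156. Among the lysosomal genes, 2 of 38 were called, and both fell: Psap, by 21.3%, and Pld4, by 38%. That is 5.26% of the members, beside 0.331% of all genes tested that were called in either direction and 0.21% that were called lower. A further 8 members had an unadjusted p below 0.05 and did not pass the adjustment, so that 10 of 38 (26.3%) were below 0.05 before adjustment, against 10.2% of all genes tested. Of these 10, 9 were lower in recent KO GMPs, where 5.35% of all genes were lower at that p, and 1, Lgmn, was higher. In direction, 30 of the 38 had a log2 fold change below 0 (78.9%), against 50.4% of all genes tested. With library size as the only scaling, 25 of the 38 were below 0. The median of the members was then -0.05 and that of all genes 0.07, so that the members still lay below the other genes. The share of all genes below 0 was not counted in that fit. In it 5 members had an unadjusted p below 0.05, against 11.6% of all genes tested, and that share was near the one of all genes. The median log2 fold change of the members was -0.11, with quartiles of -0.27 and -0.01, and that of all genes tested was 0.00 with quartiles of -0.11 and 0.10. The lowest WT sample exceeded the highest recent KO sample for 3 members, Psap, Pld4 and Hexa. These are 7.89% of the list, against 2.43% of all genes without overlap in either direction and 1.32% in the lower direction.

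Without Psap and Pld4, 0 of the other 36 members were called by edgeR, 8 had an unadjusted p below 0.05, of which 7 were lower, and the median log2 fold change was -0.11. DESeq2 called 3 members, Psap, Pld4 and Hexa, so 1 of these 36, where it called 1.09% of the genes to which it gave an adjusted p. Limma, run on the TPM values, called 0 of the 35 members it tested, with 4 at an unadjusted p below 0.05, against 9.39% of all genes in that fit, again near the share of all genes. The members were listed with earlier results of these data known, so these counts are not independent evidence about the list.

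**Figure D2:**
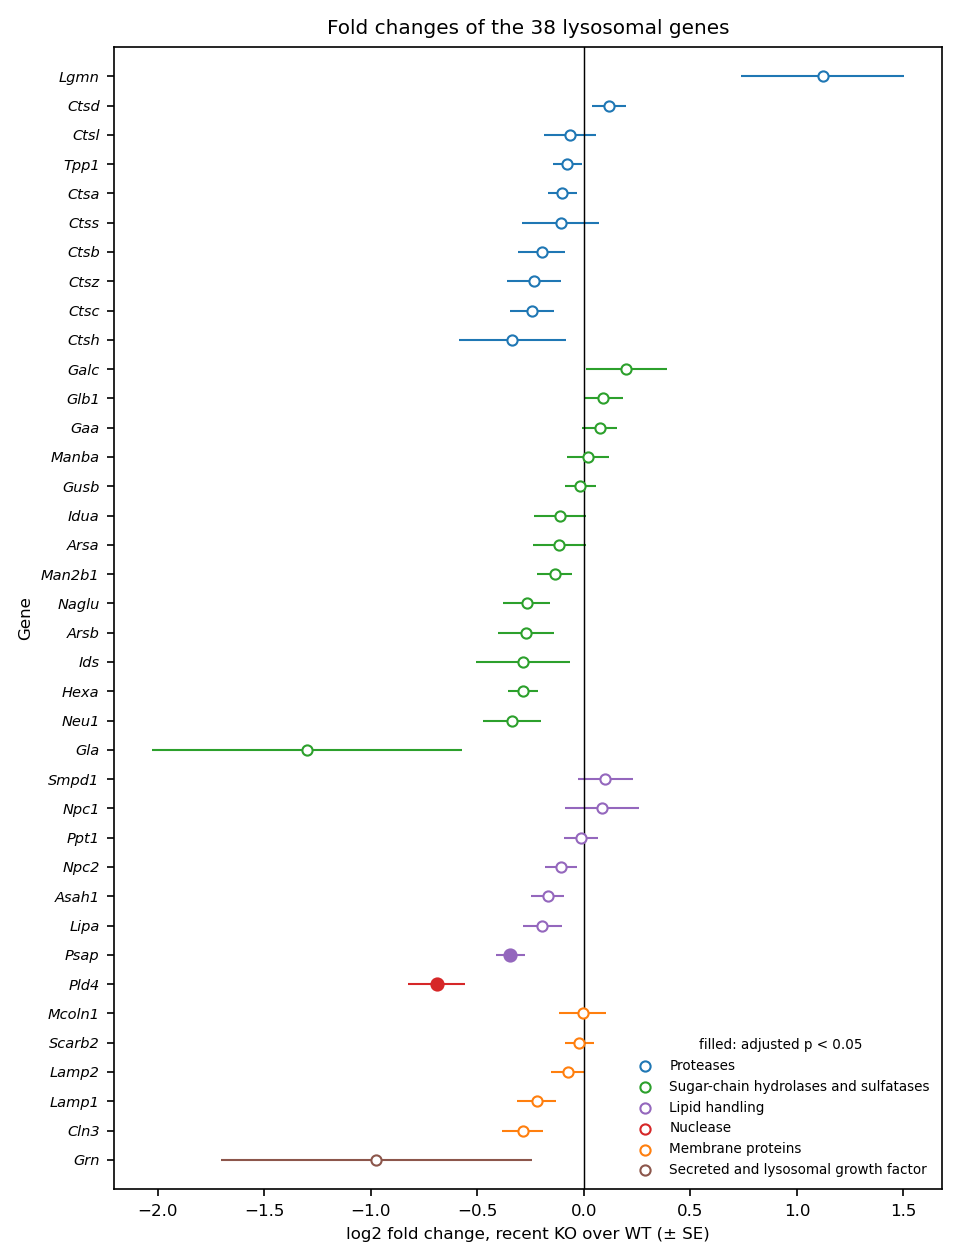
Log2 fold change (negative where the recent KO is lower) for each of the 38 genes, grouped and colored by role, with bars for the SE of the edgeR fit (n = 5 per group). Filled points mark Psap and Pld4, the genes with an adjusted p below 0.05, and 30 of the 38 points lie below 0.

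Psap encodes prosaposin, which is cut into the saposins, small proteins that present sphingolipids to lysosomal hydrolases. The gene (ENSMUSG00000004207) spans chr10:60277627-60302597 on the plus strand (GRCm38). Its level was 79.9, 81.7, 86.4, 86.3 and 86.0 CPM in the WT samples and 68.1, 64.5, 57.4, 70.0 and 71.1 CPM in the recent KO samples. Every recent KO sample lay below every WT sample, with recent KO 3 the lowest. The mean was 84.1 CPM ± 3.06 (SD, n = 5) in WT against 66.2 CPM ± 5.51 (n = 5) in recent KO samples, for a log2 fold change of -0.34 ± 0.07 (SE) with an adjusted p of 0.0468, and an exact two-sided permutation test gave 0.00794, its smallest possible p with groups of 5. The transcript Psap-202 took 84.3% of the gene's reads in WT and 86.8% in recent KO samples on average. Of 11 alternative fits, 3 called Psap, namely DESeq2 (adjusted p 0.0014), edgeR with no filter on low counts and edgeR with a mean count of at least 50. The call was lost in the other 8, among them RLE (0.0526) and upper quartile normalization (0.0576) and library size only (0.176), with adjusted p-values up to 0.503. It was also lost when any one of the 10 samples was left out (adjusted p 0.0521 to 0.153), while the log2 fold change stayed between -0.37 and -0.30.

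Pld4 encodes an exonuclease of the endolysosome that degrades single-stranded nucleic acids and is known from dendritic cells and macrophages. The gene (ENSMUSG00000052160) lies at chr12:112760655-112768990 on the plus strand. Its level was 30.0, 35.3, 27.5, 38.3 and 25.1 CPM in the WT samples and 16.8, 17.0, 17.6, 24.5 and 20.7 CPM in the recent KO samples. The groups did not overlap, but the lowest WT sample, WT 5, and the highest recent KO sample, recent KO 4, were close. The means were 31.3 CPM ± 5.47 and 19.3 CPM ± 3.3 (SD, n = 5 each), a log2 fold change of -0.69 ± 0.13 (SE) with an adjusted p of 0.0468 and an exact permutation p of 0.00794. Of the 11 alternative fits, 3 called Pld4, namely DESeq2 (adjusted p 0.000292), edgeR with no filter on low counts and edgeR with RLE normalization. In the other 8 the call was lost, as with upper quartile normalization (0.0537), library size only (0.0760) and a mean count of at least 50 (0.0530), with adjusted p-values up to 0.411. When samples were left out in turn, the call held without WT 5 and without recent KO 4 and was lost in the other 8 fits, with adjusted p-values between 0.0293 and 0.129 over all 10. Of the markers of monocyte and dendritic progenitors, edgeR called 0 of the 14 tested. DESeq2 called 2, Cx3cr1 and Flt3, against 1.09% of the genes to which it gave an adjusted p. With edgeR an unadjusted p below 0.05 was found for 9 of the 14 (64.3%), against 10.2% of all genes tested. Of these 9, 6 were lower (Irf8, Csf1r, Ly86, Ccr2, Cx3cr1 and Zeb2) and 3 were higher (Cd74, H2-Eb1 and Flt3). Cx3cr1, a chemokine receptor gene of monocytes, was 5.56 CPM ± 1.24 in WT against 3.45 CPM ± 0.231 in recent KO GMPs (adjusted p = 0.155), and Flt3, a receptor gene of dendritic and earlier progenitors, was 12.5 CPM ± 2.13 and 24.7 CPM ± 8.51 (adjusted p = 0.0597). The summed level of that list was 1148 to 1293 CPM in WT samples and 947 to 1201 CPM in recent KO samples. Most of it was Cst3, at 776 CPM of a mean sum of 1233 CPM in WT and 705 CPM of 1095 CPM in recent KO samples. The part of the list in the lower Pld4 was not tested. Of the markers of marrow macrophages, 12 of 14 had a log2 fold change above 0 and 2, Adgre1 and Siglec1, below 0. The part of that list in the level of Pld4 was not tested either.

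Hexa, which encodes the α subunit of β-hexosaminidase, the enzyme that removes terminal sugars from GM2 ganglioside, was the third member without overlap. The gene (ENSMUSG00000025232) lies at chr9:59539540-59565109 on the plus strand. Its level was 276, 260, 266, 281 and 257 CPM in the WT samples and 211, 252, 192, 220 and 224 CPM in the recent KO samples. Recent KO 2 came close to the lowest WT sample, and the other 4 lay further below. The log2 fold change was -0.29 ± 0.07 (SE) with an adjusted p of 0.137, so that it was not called. The exact permutation p was 0.00794, as for Psap and Pld4, since any gene without overlap takes that value with groups of 5. It therefore adds nothing to the lack of overlap. Of the 11 alternative fits, 1 called Hexa, namely DESeq2 (adjusted p 0.0202), and the others did not, with adjusted p-values up to 0.811. When samples were left out in turn, edgeR called it only without recent KO 2 (0.0191), with adjusted p-values up to 0.322 in the other fits.

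**Figure D3:**
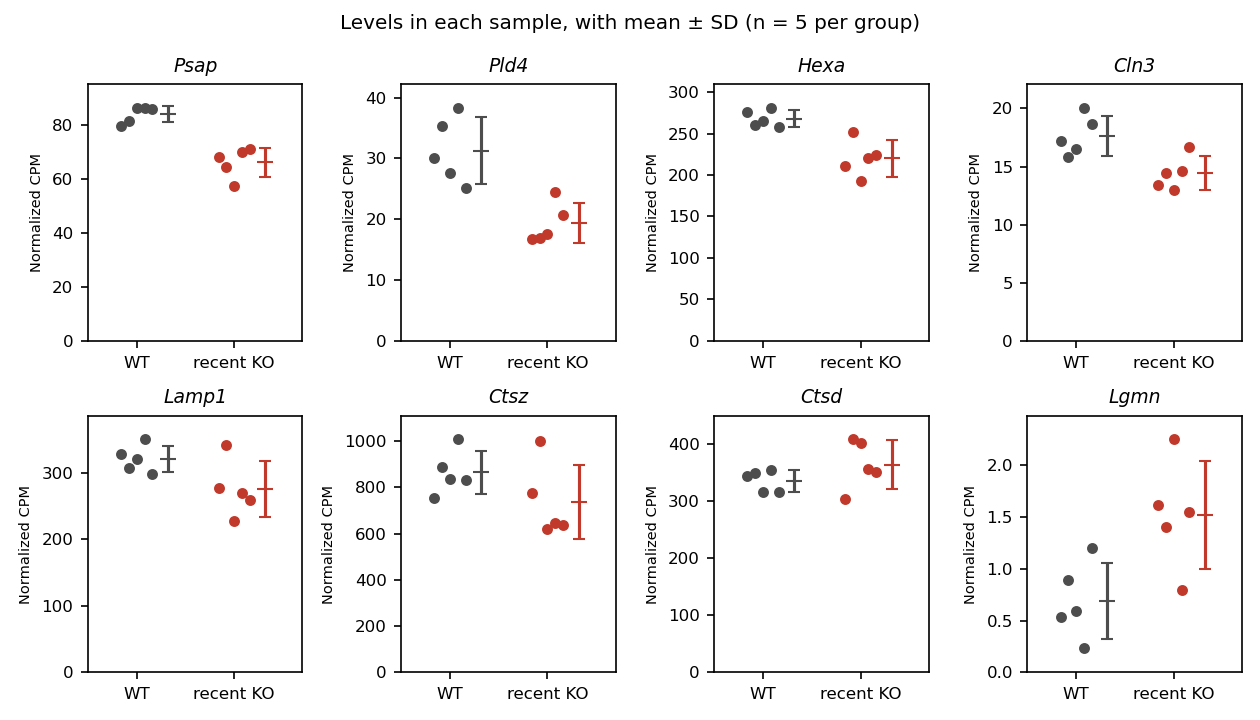
Normalized CPM of 8 of the genes in each of the 5 WT and 5 recent KO samples (points), with the group mean ± SD beside them and axes that start at 0. Psap, Pld4 and Hexa show no overlap between the groups, and the other 5 genes overlap.

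Of the 10 proteases, 8 had a log2 fold change below 0 and 2 above, the median was -0.11, and none was called by edgeR or DESeq2 (2, Ctsc and Lgmn, had an unadjusted p below 0.05). Ctsc encodes cathepsin C, a dipeptidyl peptidase that activates the serine proteases of granules. It was 83.2, 95.2, 82.8, 118 and 90.1 CPM in WT samples and 66.4, 91.4, 80.4, 80.1 and 77.3 CPM in recent KO samples, with 4 of the 5 recent KO samples below every WT sample. Its log2 fold change was -0.24 ± 0.10 (SE; adjusted p = 0.429). Ctsz was 756, 889, 837, 1007 and 832 CPM in WT samples and 774, 1002, 621, 646 and 636 CPM in recent KO samples. Recent KO 2 stood near the highest WT sample and 3 recent KO samples stood below all WT samples, which left the log2 fold change at -0.23 ± 0.13 (SE; adjusted p = 0.561). Ctsb was 310, 359, 331, 373 and 306 CPM in WT samples and 296, 388, 247, 263 and 269 CPM in recent KO samples. Here recent KO 2 was above every WT sample and the other 4 were below every WT sample, with a log2 fold change of -0.20 ± 0.11 (SE; adjusted p = 0.573).

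Ctsd went the other way. It was 343, 348, 315, 354 and 315 CPM in WT samples and 302, 408, 402, 355 and 351 CPM in recent KO samples, a log2 fold change of 0.12 ± 0.08 (SE; adjusted p = 0.668). Recent KO 3, the lowest sample for most of the other proteases, was among the highest here. Ctsh, encoding an aminopeptidase, varied most among the recent KO samples for a protease above 20 TPM, from 13.9 CPM in recent KO 3 to 53.9 CPM in recent KO 2 (WT 36.2 to 51.9 CPM). Its log2 fold change of -0.33 had an SE of 0.25. Ctsa, which also protects the sialidase and β-galactosidase, Tpp1, a tripeptidyl peptidase, Ctss, which acts in MHC class II presentation, and Ctsl, an endopeptidase, had log2 fold changes of -0.10, -0.08, -0.11 and -0.06, none beyond an unadjusted p of 0.05.

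Lgmn was the one member that was higher at an unadjusted p below 0.05. It was 0.54, 0.89, 0.59, 0.23 and 1.20 CPM in WT samples and 1.62, 1.40, 2.25, 0.79 and 1.55 CPM in recent KO samples, with 4 of 5 recent KO samples above every WT sample. The log2 fold change was 1.12 ± 0.38 (SE; adjusted p = 0.312). At these levels the gene rested on few reads, since 3 counts correspond to 0.153 to 0.215 CPM before normalization. Lgmn is a gene that macrophages express strongly, and most, but not all, marrow macrophage markers were higher in the same samples. Of 14 tested markers 12 had a log2 fold change above 0, with a median log2 fold change of 1.11. The 2 below 0 were Adgre1 at -0.39 and Siglec1 at -0.17. Cd163, Slc40a1 and Vcam1 changed little, at 0.02, 0.07 and 0.18. Of the 14, 8 (57.1%) had an unadjusted p below 0.05, all higher, against 10.2% of all genes tested. The groups did not overlap for 6 (42.9%), against 2.43% of all genes. Called by edgeR were 3 (21.4%), C1qa, C1qb and C1qc, all higher, against 0.331% of all genes. DESeq2 called 7, these 3 with Spic, Cd5l, Fcna and Hmox1, against 1.09% of the genes to which it gave an adjusted p. Limma called 1, where it called 25 of all 10333 genes in its fit. C1qa went from 2.43 CPM ± 0.766 to 5.79 CPM ± 1.46 (adjusted p = 0.0406). The summed level of the list, in which no marker was at or under 3 counts in all samples, was 31.1 to 61 CPM in WT samples and 64.8 to 116 CPM in recent KO samples, and its part in the level of Lgmn was not tested.

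Of the 14 hydrolases and sulfatases that act on sugar chains, 10 had a log2 fold change below 0, the median was -0.13, and none was called by edgeR (3, Hexa, Neu1 and Naglu, of which DESeq2 called Hexa, had an unadjusted p below 0.05). Neu1, the lysosomal sialidase, was 44.7, 51.9, 52.2, 70.0 and 41.8 CPM in WT samples and 45.7, 49.0, 33.4, 39.4 and 38.9 CPM in recent KO samples. The groups overlapped and WT 4 was the highest, with a log2 fold change of -0.34 ± 0.14 (SE; adjusted p = 0.415). Naglu, an enzyme of heparan sulfate breakdown, was 18.8, 17.4, 15.4, 14.3 and 18.3 CPM in WT samples and 16.2, 14.8, 12.2, 14.9 and 12.0 CPM in recent KO samples. Its groups overlapped as well, with a log2 fold change of -0.27 ± 0.11 (SE; adjusted p = 0.425). Arsb, which removes sulfate from dermatan sulfate, and Man2b1, an α-mannosidase, had log2 fold changes of -0.27 ± 0.13 and -0.14 ± 0.08 (SE).

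The remaining members of this group had an unadjusted p above 0.05. Gusb, β-glucuronidase, was 224 CPM ± 13.1 in WT against 222 CPM ± 23.6 in recent KO GMPs (SD, n = 5), and Manba, a β-mannosidase, was 22.7 CPM ± 2.99 and 23.0 CPM ± 1.74. Gaa, which breaks down glycogen, Glb1, the β-galactosidase, and Galc, which acts on galactosylceramide, had log2 fold changes of 0.07, 0.09 and 0.20. Arsa, the sulfatase for sulfatide, Idua, an α-iduronidase, and Ids were at -0.12, -0.11 and -0.28. Gla had the lowest log2 fold change of the 38, at -1.30, with an SE of 0.73. It was 0.54, 3.77, 2.14, 0.85 and 2.87 CPM in WT samples and 0.00, 1.96, 1.47, 0.06 and 0.62 CPM in recent KO samples, which overlapped widely. The 0.00 CPM in recent KO 1 allows up to 0.205 CPM before normalization by counting error alone. The gene rested on a mean of 24.5 reads, its coefficient of variation among WT samples was 66.7%, and the difference was not larger than the spread between samples (unadjusted p above 0.05).

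Of the 7 genes of lipid handling, 5 were below 0 and the median was -0.11. Besides Psap, Asah1, encoding acid ceramidase, had an unadjusted p below 0.05. Its level was 59.5, 53.5, 55.1, 66.1 and 54.5 CPM in WT samples and 47.2, 51.0, 48.8, 53.0 and 56.3 CPM in recent KO samples. Only recent KO 5 reached the WT range, and the log2 fold change was -0.17 ± 0.08 (SE; adjusted p = 0.461). Lipa, the acid lipase for cholesteryl esters, was 21.5 CPM ± 2.08 and 18.8 CPM ± 1.75. Npc2, which hands cholesterol to the membrane protein NPC1, was 217 CPM ± 16.2 and 201 CPM ± 19.5 (adjusted p = 0.699). Npc1, Smpd1, encoding acid sphingomyelinase, and Ppt1, which removes palmitate from proteins, had log2 fold changes of 0.09, 0.10 and -0.01, each smaller than its SE.

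All 5 genes of membrane proteins had a log2 fold change below 0, with a median of -0.08, and none was called by edgeR or DESeq2 (2, Cln3 and Lamp1, had an unadjusted p below 0.05). Lamp1, the most abundant of them, was 327, 306, 321, 350 and 298 CPM in WT samples and 277, 342, 228, 270 and 259 CPM in recent KO samples. Recent KO 2 was within the WT range and the other 4 were below every WT sample, with a log2 fold change of -0.22 ± 0.09 (SE; adjusted p = 0.425). Cln3 encodes a multi-span membrane protein of the lysosome. It was 17.2, 15.8, 16.5, 20.1 and 18.7 CPM in WT samples and 13.4, 14.5, 13.0, 14.6 and 16.7 CPM in recent KO samples, and recent KO 5 alone reached the WT range. Its log2 fold change was -0.29 ± 0.10 (SE; adjusted p = 0.302). Lamp2, Scarb2, the receptor that carries glucocerebrosidase to the lysosome, and Mcoln1, a cation channel, had log2 fold changes of -0.08, -0.02 and -0.01, each smaller than its SE. Lamp1, Cln3, Hexa, Ctsb and Ctsz each overlap a gene on the opposite strand, and where exons overlap, reads from the pair cannot be told apart without strand.

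Grn, which encodes progranulin, a growth factor that is secreted and also delivered to the lysosome, could not be read from its annotated transcripts alone. It was 127, 13.5, 150, 107 and 72.9 CPM in WT samples and 38.5, 80.6, 7.43, 110 and 4.02 CPM in recent KO samples, a log2 fold change of -0.97 with an SE of 0.73. The estimated reads of its main transcript ran from 0 to 2530. The 143 transcripts outside the annotation used here with a mean of at least 1 CPM were ranked by their correlation with this transcript over the samples. The transcript with the most negative correlation was taken. It has 2340 bases, beside 2331 for the main Grn transcript, and its gene is not given in the sources used here. The sum of the pair was 157, 173, 177, 181 and 159 CPM in WT samples and 142, 176, 133, 151 and 149 CPM in recent KO samples, or 169 CPM ± 11 and 150 CPM ± 15.9 (SD, n = 5). The log2 ratio of the means of that sum was -0.17, and its exact permutation p was 0.0556. Since the pick was made on these same values and tends to narrow the spread of the sum, no conclusion can be drawn from that p. The transcript was picked after the values were seen, and the level printed for Grn is therefore uncertain. Without Grn and Gla, the 2 members with the lowest fold changes, 2 of 36 were called and 77.8% were below 0.

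The samples within the recent KO group differed in how far the list was shifted. The summed level of the 38 genes was 3851, 3843, 3911, 4293 and 3760 CPM in the WT samples and 3459, 4229, 3129, 3481 and 3305 CPM in the recent KO samples. Recent KO 2 lay within the WT range and the other 4 were below every WT sample, and the ratio of the means was 0.895. Summed as TPM, recent KO 2 stood at 2040, above the highest WT sample at 1786. The median over members of the log2 ratio to the WT mean was 0.07 in recent KO 2 and -0.15, -0.25, -0.12 and -0.13 in recent KO 1, 3, 4 and 5. In the WT samples it was 0.11 in WT 4 and between -0.03 and -0.02 in the rest, while over all genes tested it stayed between -0.01 and 0.01 in every sample. Recent KO 2 was the highest recent KO sample for 21 of the 38 members, and recent KO 3 was the lowest for 20. Psap and Pld4 were below the WT range in recent KO 2 too.

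**Figure D4:**
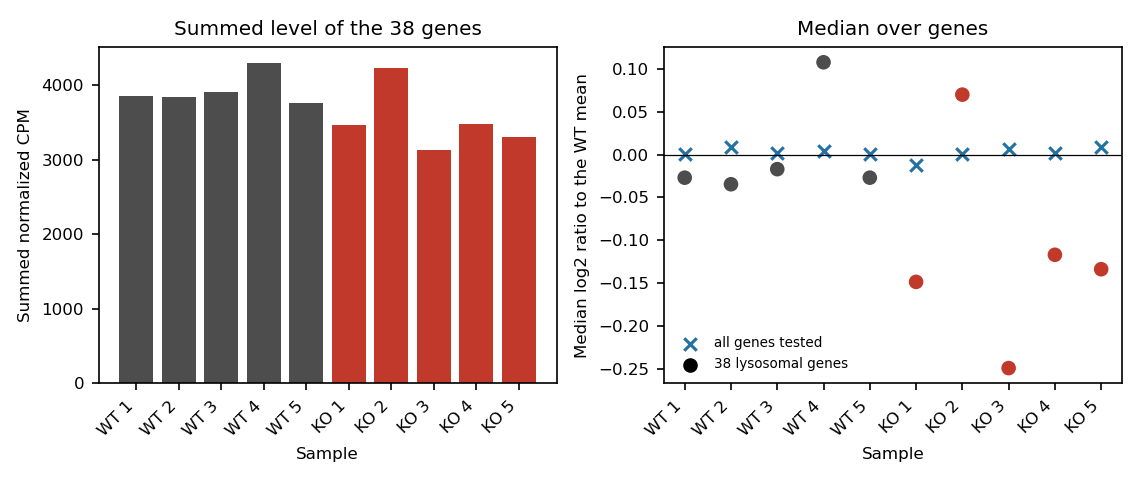
Left, summed normalized CPM of the 38 genes in each sample, as bars from 0. Right, the median log2 ratio to the WT mean in each sample over the 38 genes (circles) and over all genes tested (crosses). Recent KO 2, at 4229 CPM, lies within the WT range and the other 4 recent KO samples lie below it.

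Leaving out recent KO 2 moved the median log2 fold change of the members to -0.17 and the number with an unadjusted p below 0.05 from 10 to 17, of which 16 were lower. The number of calls was then 1, Hexa, with 91 genes called over all genes tested in place of 41. Leaving out recent KO 3 moved the median to -0.08 and the number below 0.05 to 6. Without WT 4, which held the highest summed level, the median was -0.13 and 6 members were below 0.05.

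**Figure D5:**
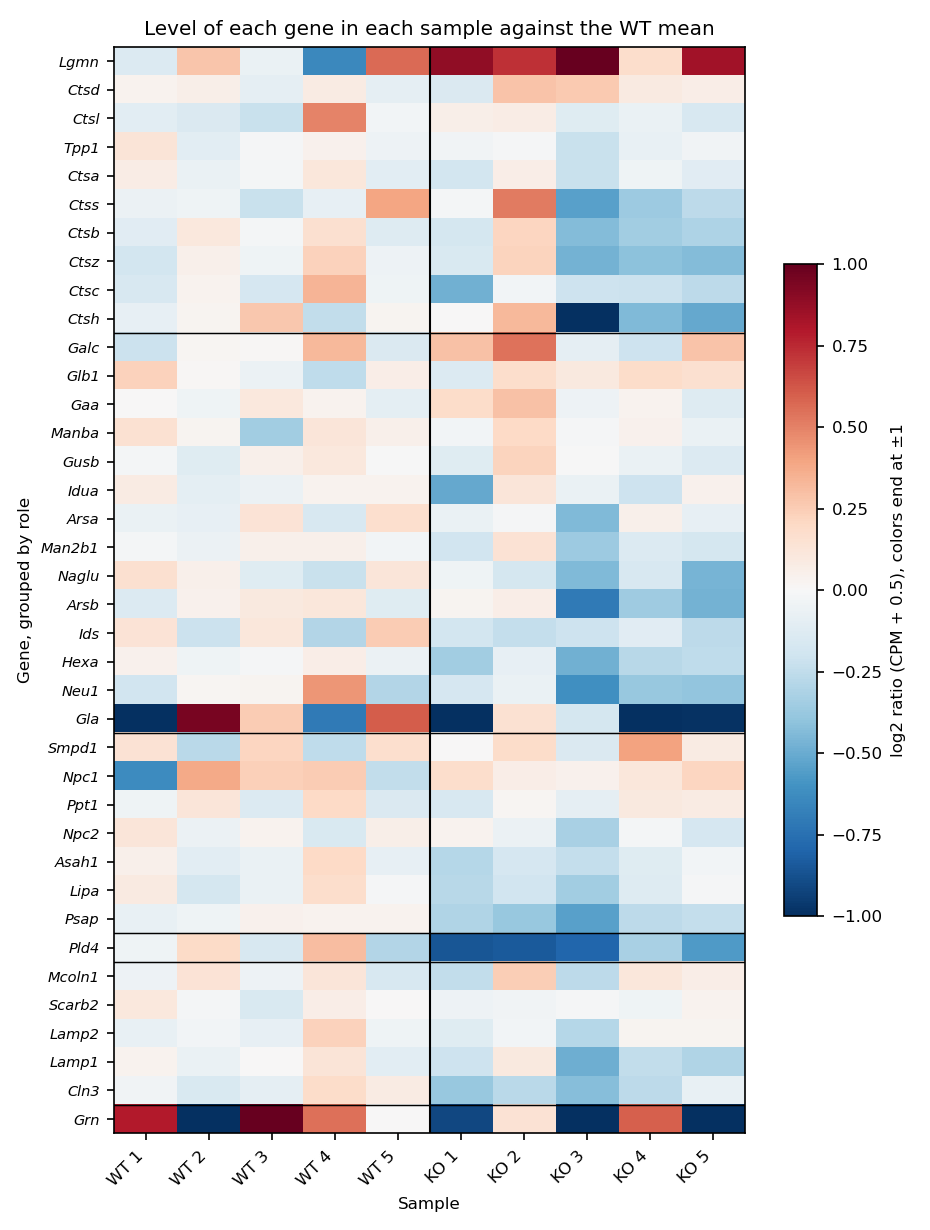
Log2 ratio of each gene in each sample to the mean of the 5 WT samples, with 0.5 CPM added before taking logs and colors that end at 1 in either direction. Blue cells mark levels below the WT mean. In recent KO 2, 15 of the 38 genes lie below the WT mean, Psap and Pld4 among them, and in recent KO 3, 34 do.

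The coefficient of variation between samples of a group had a median over members of 10.2% in WT and 12% in recent KO samples, against 12.2% and 13.5% over all genes tested. It was larger in recent KO than in WT samples for 22 of the 38 members, beside 56.3% of all genes tested, which is about the same share.

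Genes that mark GMPs and their granules were also mostly lower in recent KO GMPs. Of 12 tested, 10 had a log2 fold change below 0, with a median of -0.30. The 2 above 0 were Cd34 at 0.25 and Kit at 0.08, and Cebpa was near 0 at -0.04. Of the 12, 8 (66.7%) had an unadjusted p below 0.05, against 10.2% of all genes tested. None was called by edgeR. DESeq2 called 2, Mpo and Fcgr3, against 1.09% of the genes to which it gave an adjusted p. Mpo, encoding myeloperoxidase of the primary granules, was 54687, 64455, 65251, 69039 and 51593 CPM in WT samples and 41980, 52804, 31826, 40871 and 44556 CPM in recent KO samples. Recent KO 2 was again the highest and recent KO 3 the lowest of the recent KO samples. Its log2 fold change was -0.52 ± 0.17 (SE; adjusted p = 0.272), and that of Fcgr3, encoding an Fc receptor used in the GMP gate, was -0.65 ± 0.15 (SE; adjusted p = 0.107). The summed level of the list was 87951 to 123817 CPM in WT samples and 52004 to 89971 CPM in recent KO samples, and its part in the lower level of the lysosomal genes was not tested. In bulk samples, fewer cells of a type and less RNA per cell cannot be told apart. Markers of later neutrophils (7 of 8 tested above 0) and of erythroid cells (5 of 5) were not called by edgeR or DESeq2 and had medians of 0.93 and 2.01. In each list 4 genes had an unadjusted p below 0.05 (50% and 80%, against 10.2% of all genes tested). The summed level of later neutrophil markers was 196 to 538 CPM in WT samples and 650, 924, 197, 364 and 576 CPM in recent KO 1 to 5. That of the erythroid markers was 7.88 to 40.2 CPM in WT samples and 22.6, 27.2, 202, 138 and 121 CPM in recent KO 1 to 5. The groups overlapped in both, but recent KO 3, 4 and 5 lay above every WT sample for the erythroid markers. The part of either list in the levels of the lysosomal genes was not tested. Ltf and Ngp, of the secondary granules, had log2 fold changes of 1.84 and 1.53, and the globin genes Hbb-bt and Hbb-bs 1.95 and 2.08. Of the B cell markers only Cd79b was tested, at 59.7 CPM ± 3.95 and 55.4 CPM ± 6.53.

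Genes of the same pathway outside the 38 were described by 7 further lists. Of the 128 tested, edgeR called 0 and limma 0. DESeq2 called 1, Ctsw, against 1.09% of the genes to which it gave an adjusted p. An unadjusted p below 0.05 was found for 20 (15.6%), of which 18 were lower, and 67.2% of the 128 were below 0. Of all genes tested, 10.2% had such a p, 5.35% were lower at that p and 50.4% were below 0. Among 33 other lysosomal hydrolases and activators, 20 were below 0 with a median of -0.05. Those with the smallest p were Ctsw, a protease of cytotoxic cells, and Pla2g15, a phospholipase. Ctsw was higher, at means of 0.85 CPM in WT (0.39 to 1.19) and 2.34 CPM in recent KO samples (1.46 to 3.76). At these levels it rested on few reads. Pla2g15 had a log2 fold change of -0.31 ± 0.08 (SE; adjusted p = 0.176). Of 17 subunits of the proton pump, which acidifies the lumen, 13 were below 0 with a median of -0.09. The other lysosomal membrane proteins gave 14 of 22 below 0 with a median of -0.05, and the proteins that sort enzymes to the lysosome 10 of 13 with a median of -0.06. For Atp6v1h and Atp6v1b2 of the pump the log2 fold changes were -0.17 and -0.19, for Cd68 and Laptm4b of the membrane -0.20 and 0.44, and for the sorting adaptor Gga1 and the sorting receptor Sort1 -0.24 and -0.18.

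The MiT/TFE factors and the nutrient-sensing proteins that control them divided evenly, with 8 of 16 below 0 and a median of -0.02. Tfec, a member of that family, was lowest in p, at 60.4 CPM ± 4.32 in WT against 50.7 CPM ± 7.8 in recent KO GMPs (adjusted p = 0.401), followed by Lamtor1, a membrane anchor of the sensing complex, at -0.12 on the log2 scale. Of 24 autophagy genes, 18 were below 0 with a median of -0.08, and 5, among them Atg12 at -0.19 and the cargo receptor gene Tax1bp1 at -0.18, had an unadjusted p below 0.05. The 3 tested inhibitors of cathepsins were below 0, with Cst7 at -0.29 and Cst3 at -0.14.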

How the data were processed

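Per the labels and the study's methods, RNA was prepared with the NucleoSpin RNA XS kit, libraries were made with the SMARTseq V4 kit and sequenced as paired-end reads on an Illumina NovaSeq. The authors ran Salmon (version 1.5.1 per the submitters' processing notes) on the M27 transcripts of Gencode (GRCm39). The deposited estimated counts per transcript are raw and can be fractional, and the deposited TPM corrects for transcript length and sums alike in each sample. A deposited table of the authors' own DESeq2 comparison, with mean counts, log2 fold changes, standard errors, test statistics and p-values per gene, was not used here. DESeq2 is listed with version 2.11.40.6 in the same notes.

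Transcripts were assigned to genes through GENCODE M21 on GRCm38, an older annotation, by identifiers without version. Of 140789 transcripts, 137161 (97.4%) matched, and the other 3628, with 0.348% to 0.390% of a sample's estimated reads, were left out. Reads were summed over the transcripts of a gene and rounded. Samples totaled 14033776 to 19745405 reads, and 3 counts correspond to 0.153 to 0.215 CPM. Intervals and floors of this kind cover counting error only, since amplified cDNA reads are not independent molecules. Positions are from M21 on GRCm38, and promoters are from RefSeq's GRCm38.p6 table.

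The 2 groups were compared with edgeR 4.0.16 (R 4.3.3; quasi-likelihood test, TMM normalization, genes kept by filterByExpr with a minimum count of 10, condition as the only term) on estimated counts, with a threshold of 0.05. For single values, exact two-sided permutation tests over samples were used, whose smallest p is 0.00794, and these p-values are not adjusted. Per-sample log2 ratios used a pseudocount of 0.5 CPM. Samples of a group differed by more than sampling noise (chi-square of 6.71 to 46.5 per gene for each pair), so each counted as 1 replicate. Samples sharing a replicate number did not deviate together (correlations of -0.177 to 0.0576 over genes), so numbers were not used as pairs. Alternatives were other normalizations, filters, DESeq2 1.42.0, a transcript length offset, limma 3.58.1 on TPM, logged after adding 1 or 0.1, the replicate number as a block and leaving out each sample. Summing as TPM, leaving out the 3 most abundant members or Grn and Gla, and adding the transcript outside M21 to Grn were chosen after the values were seen. The scripts were tested on simulated data. Python 3.11.15 with numpy 2.4.6, pandas 2.3.3, scipy 1.17.1 and matplotlib 3.10.9 was used for the rest.

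The members, their roles and the other lists were chosen with earlier results of these data known. Values in every sample are given for Psap, Pld4, each member with an unadjusted p below 0.05 or no overlap, and the 5 most abundant in WT, and also for Gla and Grn, which were added after their values were seen. Other lists name called genes, or else the 2 genes with the smallest p.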

Additional observations from a re-analysis of the deposited data

Results flagged for a closer look

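In groups of 5 samples, a sample whose gap to the nearest other exceeded Dixon's critical value was looked for in the 38 genes. Of 76 groups 4 had one, where chance gives about 3.8. Lamp2 was 128 CPM in WT 4, against 103 to 107 CPM in the other WT samples. Ctsl was 50.8 CPM in WT 4, against 30.8 to 35.3 CPM. Ctss was 30.0 CPM in WT 5, against 19.4 to 22.0 CPM. Glb1 was 60.1 CPM in recent KO 1, where the others of its group were 71.1 to 75.1 CPM. None of the 4 genes was called by edgeR with all samples, with adjusted p-values of 0.818 (Lamp2), 0.908 (Ctsl), 0.889 (Ctss) and 0.811 (Glb1), and none had an unadjusted p below 0.05 or was called by DESeq2.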

How the results depend on the processing

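The count of called members, 2 of 38, did not hold under most settings, while the median log2 fold change kept its sign under every one of them (-0.17 to -0.05). The count was 1 with RLE normalization and with a mean count of at least 50, and 0 with upper quartile normalization, with library size only, with a transcript length offset, with limma on TPM (pseudocount 1 or 0.1) and with no filter on low TPM. It was 2 with no filter on low counts, 3 with DESeq2, and 0 to 1 when 1 sample was left out. The replicate number as a block gave 0 members and 20 genes in all. Over all genes tested, 41 were called in the report's fit, 206 with no filter on low counts, 156 with DESeq2, 25 and 24 with limma at a pseudocount of 1 and 0.1, 13 with no filter on low TPM, and 25 to 91 when 1 sample was left out. The highest of these was without recent KO 2. The cause of these differences was not tested.

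In 41 values of 8 members the sign changed, in no case with an adjusted p below 0.05. With library size only, Ctsl was at 0.011, Gusb 0.057, Ppt1 0.063, Mcoln1 0.069 and Scarb2 0.048. With upper quartile normalization Ppt1 was at 0.0033 and Mcoln1 at 0.0085, and with the length offset Gusb was at 0.018 and Npc1 at -0.26. With limma at a pseudocount of 1, with or without the filter, Gusb was at 0.079, Npc1 at -0.074, Ppt1 at 0.048, Mcoln1 at 0.037 and Scarb2 at 0.044, and at 0.1 they were at 0.080, -0.073, 0.049, 0.038 and 0.052. With 1 sample left out, log2 fold changes ran from -0.12 to 0.081 for Ctsl, -0.31 to 0.0068 for Ctss, -0.082 to 0.014 for Gusb, -0.059 to 0.061 for Manba, -0.076 to 0.056 for Mcoln1, -0.054 to 0.19 for Npc1, -0.046 to 0.039 for Ppt1 and -0.058 to 0.0066 for Scarb2. Summed TPM gave a log2 ratio of the summed level of -0.10 and the sum without the 3 most abundant members -0.17, beside -0.16 for summed CPM. Without Grn and Gla the median was -0.11. Lgmn and Gla, near 1 CPM, rested on few reads.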
